A study of Mus musculus with 23 samples.

Results

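The 10 genes described here belong to the growth hormone (GH) and insulin-like growth factor (IGF) axis: Ghr, Igf1, Igfals, Igfbp1, Igfbp2, Igfbp3, Socs2, Cish, Stat5a and Stat5b. They were taken by name from the 48895 gene symbols of the authors' table, and all 10 were found. The RNA was poly(A) RNA of whole tissue from male BALB/c mice that were 4 to 6 weeks old at the operation and were killed 3 weeks after it. Control liver came from 5 sham-operated mice that received serum-free medium (C1, C4, C5, C6 and C7). Pre-metastatic liver and primary tumor were taken from the same 9 mice (M1, M2, M4, M5, M6, M7, M8, M10 and M12), into whose cecal serosa CT26 cells, a mouse colon carcinoma line, had been injected. The livers of these mice held no visible metastasis on histology, by the study's account. Each mouse gave 1 library per tissue, and the tumor is the growth of 1 injected line within the host's stroma.

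GH is released from the pituitary and binds the GH receptor, Ghr, on hepatocytes, where the kinase Jak2 phosphorylates the transcription factors Stat5a and Stat5b. In liver, STAT5 is known to drive Igf1 and Igfals and the feedback inhibitors Socs2 and Cish. Circulating IGF-I is carried mostly in a complex of Igfbp3 and the acid-labile subunit, the product of Igfals, while Igfbp1 and Igfbp2 carry smaller shares and are known to respond to insulin, fasting and inflammation.

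Total counts were 51064615 to 60393702 in control liver, 44587556 to 79773163 in pre-metastatic liver and 47005276 to 70884436 in tumor. Levels are given as RPKM, the count scaled to the gene's length and to the library's total, which allows levels to be set side by side between genes. The livers divide by an index of 6 clock genes into an early phase (C1, C4, C5, C6, M4, M5, M6, M7 and M8) and a late phase (C7, M1, M2, M10 and M12). The sum of 9 hepatocyte markers was 49859 to 61331 RPKM in control liver and 38856 to 85731 RPKM in pre-metastatic liver. In tumors the same sum was 8.18 to 38.5 RPKM, apart from the tumors of mice M10 and M12 with 168 and 330 RPKM. The 6 epithelial markers summed to 3.89 to 14.7 RPKM in tumors, so the tumors carried few transcripts of that list. In whole tissue, fewer cells of a type and less RNA per cell cannot be told apart.

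**Figure D1:**
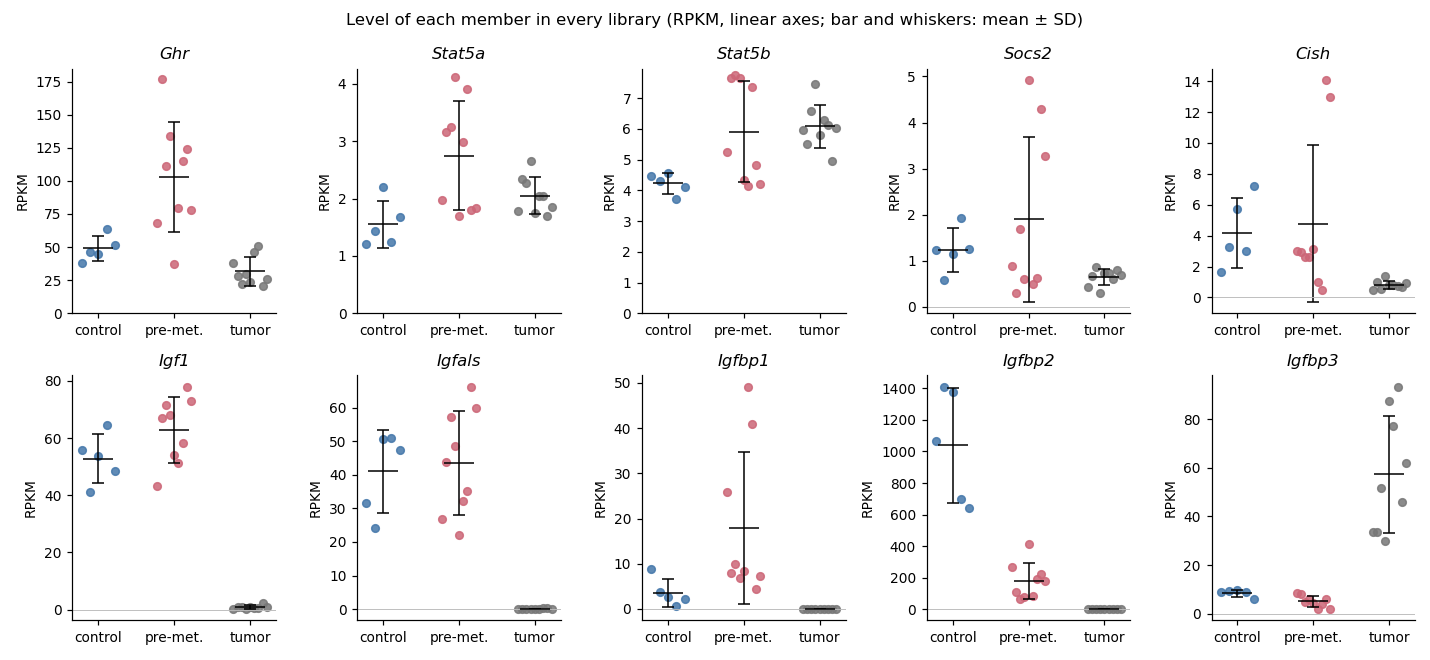
Level in RPKM (vertical axes, linear, each with its own range) of the 10 genes in every library of control liver (5 points), pre-metastatic liver (9) and primary tumor (9), with the mean and SD as black bars. Igfbp2 is the gene whose 2 liver groups stand apart without overlap, and Igfbp3 is the gene that is highest in tumors.

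The receptor and its transcription factors were first compared between the livers, to see what 3 weeks with a cecal tumor had changed in the liver's side of the axis. Ghr, Stat5a and Stat5b rose, Igfbp1 rose, Igfbp2 fell, and Igf1, Igfals, Igfbp3, Socs2 and Cish did not pass the test. Thus 4 of the 10 genes were called higher and 1 lower at an adjusted *p* under 0.05 (edgeR quasi-likelihood test with TMM scaling, two-sided, adjusted over 16987 genes). Of all genes tested, 17.7% were called higher and 13.3% lower (3009 and 2261 genes, and 2377 and 2796 with library totals as the only scaling). The median log2 fold change was 0.44 over the 10 genes and 0.01 over all genes.

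Ghr lies on chromosome 15 (mm10, 3317755 to 3583352, minus strand). Its level was 38, 46.6, 44.6, 63.9 and 51.9 RPKM in the livers of C1, C4, C5, C6 and C7. In pre-metastatic liver it ranged from 37.3 RPKM in M6 through a median of 111 to 177 RPKM in M2. Of the 9 pre-metastatic livers, 8 lay above the highest control liver, and that of M6 lay below the lowest. The fitted rise was 2.18-fold (log2 1.13 ± 0.25 SE, adjusted *p* = 0.00323), and within the early phase alone it was 2.02-fold (adjusted *p* = 0.0213). The exact rank-sum test gave an adjusted *p* of 0.0604 for Ghr.

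Stat5a and Stat5b are paralogs that lie head to head on chromosome 11 (100859351 to 100885169, plus strand, and 100780731 to 100859004, minus strand), so reads from their shared coding sequence may have been split between them. Stat5a stood at 1.21 to 2.2 RPKM in control liver and at 1.69 to 4.12 RPKM in pre-metastatic liver (medians 1.43 and 2.99). Its rise was 1.85-fold (log2 0.89 ± 0.21 SE, adjusted *p* = 0.0058), although 4 of the 9 pre-metastatic livers stayed within the control range. Stat5b, the form that predominates in liver, stood at 3.71 to 4.55 and 4.13 to 7.76 RPKM (medians 4.32 and 5.24). It rose 1.45-fold (log2 0.54 ± 0.15 SE, adjusted *p* = 0.0113).

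The 9 values of Stat5b fell into 2 bands, 4.13 to 5.24 RPKM in M1, M6, M7, M10 and M12 and 7.37 to 7.76 RPKM in M2, M4, M5 and M8. The call of Stat5b was lost with library totals as the only scaling (adjusted *p* = 0.0507), with limma on log2(RPKM + 1) (0.0838) and with the exact rank-sum test (0.138). The ratio of Stat5b to Stat5a was 2.85 ± 0.621 in control liver (SD, n = 5) and 2.23 ± 0.436 in pre-metastatic liver (SD, n = 9), with overlapping ranges.

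Igf1, the growth factor itself (chromosome 10, 87858265 to 87937047, plus strand, with the antisense gene Igf1os inside its span), had overlapping levels in the livers. It measured 55.7, 41.3, 53.7, 64.6 and 48.6 RPKM in the control livers, in the order above. The pre-metastatic livers ran from 43.1 RPKM in M1 through a median of 66.9 to 78 RPKM in M10. Of the 9 pre-metastatic livers 5 lay above the control range, and the fitted difference of 1.25-fold (log2 0.33, 95% interval 0.03 to 0.62) had an adjusted *p* of 0.108. Without the liver of M1 it passed the threshold (log2 0.38, adjusted *p* = 0.0484).

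Igfals (chromosome 17, 24877652 to 24882011, plus strand) spread widely among mice in both groups. Control livers held 24.3 to 51 RPKM (median 47.5) and pre-metastatic livers 22 to 66.3 RPKM (median 43.8). The fitted log2 fold change was 0.17 (95% interval −0.32 to 0.66, adjusted *p* = 0.645), so the interval covers both a fall and a rise of moderate size.

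Among the pre-metastatic livers, Igfals followed Igf1. The livers of M10, M12 and M4 were the highest 3 for both genes, and Igfals was among the 3 genes most like Igf1 of 10951 compared. Spearman's rho was 0.95 (exact permutation *p* = 0.000353, adjusted over those genes 0.817) and Pearson's r was 0.899 (exact permutation *p* = 0.00124) over 9 livers. Without M1 and M7, the livers farthest from the median of Igf1, r was 0.977, and with ranks centred within the clock phase rho was 0.949. The adjusted value does not pass the threshold, and the pair was noted after the values had been seen.

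RefSeq promoter windows (GRCm38.p6, from 250 bases before to 50 bases after an annotated start) were at hand for 9 of the 10 genes. They were searched on both strands for the STAT motif TTCNNNGAA and for the FOXO motifs CAAAACA and GTAAACA, and no 2 of the matches found overlap. The STAT motif was in 8.33% of all 32544 windows, CAAAACA in 6.32% and GTAAACA in 3.66%. Of the 9 genes, Igfals and Cish held the STAT motif, Igfbp1 held CAAAACA and Igfals held GTAAACA. The 9 genes had 15 windows between them, so a count by gene and a share by window are not in the same unit. A 13-base HNF1 motif, present in 3 of all windows, was in none of them. The Igfals windows with a match are shown because this gene moved with Igf1, with the matched bases in capitals (TTCTCAGAA begins 236 bases before the first start, TTCCTAGAA 58 bases and TGTTTAC, the reverse complement of GTAAACA, 242 bases before the second).
Igfals, chr17:24877594-24877893, plus strand: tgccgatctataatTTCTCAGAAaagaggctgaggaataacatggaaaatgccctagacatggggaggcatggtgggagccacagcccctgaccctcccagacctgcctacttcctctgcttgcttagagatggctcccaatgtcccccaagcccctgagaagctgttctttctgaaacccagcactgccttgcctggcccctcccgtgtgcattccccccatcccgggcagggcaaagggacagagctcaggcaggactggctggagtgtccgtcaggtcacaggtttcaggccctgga
Igfals, chr17:24877981-24878280, plus strand: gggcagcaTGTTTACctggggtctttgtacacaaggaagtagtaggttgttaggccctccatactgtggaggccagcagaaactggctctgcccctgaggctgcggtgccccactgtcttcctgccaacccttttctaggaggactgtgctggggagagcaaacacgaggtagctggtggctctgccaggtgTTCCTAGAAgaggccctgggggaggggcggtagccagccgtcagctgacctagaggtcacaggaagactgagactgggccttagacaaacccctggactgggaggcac
Igf1, Ghr, Stat5a, Stat5b, Igfbp2 and Igfbp3 had no match to these letters in their windows, and a match is a description of the sequence, not a shown binding site.

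Of the 3 IGF binding proteins of the axis, Igfbp2 fell, Igfbp1 rose and Igfbp3 did not pass the test. Igfbp2, which in adult liver is made by hepatocytes, was the most abundant of the 10 transcripts in control liver (1068, 1412, 1380, 698 and 639 RPKM, in the order above). In pre-metastatic liver it ranged from 61.5 RPKM in M4 through a median of 179 to 412 RPKM in M6. Every pre-metastatic liver lay below every control liver, which held for 1 of the 10 genes and for 10.9% of all genes tested (no overlap in either direction). The fall was 5.38-fold (log2 −2.43 ± 0.42 SE, adjusted *p* = 0.000706).

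Within the early phase the fall of Igfbp2 was 6.31-fold (adjusted *p* = 0.00917). It was called under all 25 alternatives, the exact rank-sum test included (adjusted *p* = 0.00913). Igfbp2 lies on chromosome 1 (72824480 to 72852474, plus strand).

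Igfbp1, a binding protein known for rapid induction by fasting and inflammation, rose. Control livers measured 8.83, 3.66, 2.58, 0.721 and 2.29 RPKM. Pre-metastatic livers ranged from 4.35 RPKM in M10 through a median of 8.32 to 49.2 RPKM in M7. The ranges overlapped through the control liver of C1, while 4 of 9 pre-metastatic livers exceeded it, most of all M7, M8 (41 RPKM) and M1 (25.9 RPKM).

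The fitted rise of Igfbp1 was 5.16-fold with a wide interval (log2 2.37 ± 0.72 SE, 95% interval 0.95 to 3.78, adjusted *p* = 0.0214). Without the control liver of C1 the log2 fold change was 3.08. The gene lost its call without the control liver of C5 (adjusted *p* = 0.0538) and by the exact rank-sum test (0.0604). Within the early phase the rise was 6.08-fold (adjusted *p* = 0.0419).

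The Igfbp1 window on chromosome 11 (gene 7197787 to 7202546, plus strand) holds the CAAAACA motif 108 bases before the annotated start, in capitals, and is shown because this gene had the largest rise of the 10.
Igfbp1, chr11:7197537-7197836, plus strand: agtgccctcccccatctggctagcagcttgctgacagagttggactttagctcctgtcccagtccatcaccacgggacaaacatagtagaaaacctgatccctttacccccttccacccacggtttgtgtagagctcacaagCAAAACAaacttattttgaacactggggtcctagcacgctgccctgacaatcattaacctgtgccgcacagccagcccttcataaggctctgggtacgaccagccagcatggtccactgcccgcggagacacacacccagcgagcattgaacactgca
Of the 10951 genes compared, the acute-phase gene Saa1 was the one most like Igfbp1 over the 9 pre-metastatic livers, and its neighbour Saa2 was also among the first 3. Spearman's rho with Saa1 was 0.967 (exact permutation *p* = 0.000165, adjusted 0.604) and Pearson's r 0.829 (exact permutation *p* = 0.00463). Without M7 and M8, which were highest in both, r was 0.641 and rho 0.929. Igf1 ran the other way to Igfbp1, with a rho of −0.767 (exact permutation *p* = 0.0214, adjusted 0.817) and an r of −0.731 (exact permutation *p* = 0.0261), and without M1 and M7 r was −0.577. The adjusted values for Saa1 and Igf1 do not pass the threshold, and the pair with Igf1 was picked from all pairs of the 10 genes.

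**Figure D2:**
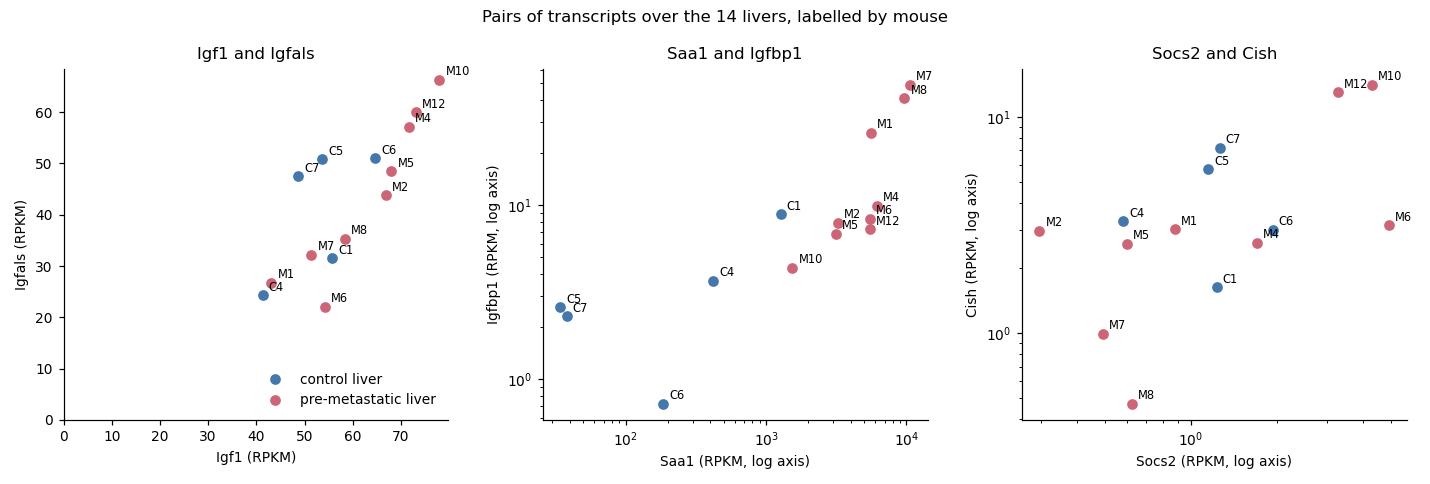
Levels of 3 pairs of transcripts in RPKM over the 5 control and 9 pre-metastatic livers, 1 point per liver with its mouse beside it; the first panel has linear axes and the other 2 have log axes. Among pre-metastatic livers, Igfals lies along Igf1 and Igfbp1 is highest in M7 and M8, which also hold the most Saa1; M10 and M12 stand apart in Cish.

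Igfbp3, which lies beside Igfbp1 (chromosome 11, 7206086 to 7214081, minus strand) and is made in liver mainly by non-parenchymal cells, was lower in most pre-metastatic livers without passing the test. It measured 8.94, 9.27, 9.71, 8.86 and 6.07 RPKM in the control livers. The pre-metastatic livers ran from 2.03 RPKM in M7 through a median of 4.78 to 8.8 RPKM in M1, and 6 of 9 lay below the lowest control liver. The fitted log2 fold change was −0.68 ± 0.28 SE (adjusted *p* = 0.0761).

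The control liver of C7, the only one of the late phase, was the lowest in Igfbp3. Within the early phase Igfbp3 was called lower (log2 −1.06, adjusted *p* = 0.00612), as it was without M1 (0.0295), without M2 (0.048) and by the exact rank-sum test (0.0308). The sum of 6 endothelial markers was 21.6 to 48.2 RPKM in control liver and 16.6 to 70.4 RPKM in pre-metastatic liver, and their part in the result was not tested.

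Set beside the other IGF binding proteins, the fall of Igfbp2 changed the makeup of the family. The summed level of Igfbp1 to Igfbp7 was 1945 ± 429 RPKM in control liver (SD, n = 5) and 1009 ± 176 RPKM in pre-metastatic liver (SD, n = 9). Igfbp2 made up 52.2% ± 7.72 of it in control liver and 16.6% ± 8.63 in pre-metastatic liver (SD). Igfbp4, which binds IGF and is cleaved by the protease Pappa, made up 43.2% ± 6.8 and 73.6% ± 7.56, at levels of 820 ± 100 and 736 ± 113 RPKM (SD). The fitted log2 fold change of Igfbp4 was −0.07 ± 0.14 SE (adjusted *p* = 0.742), and it was the leading transcript of the family in every pre-metastatic liver, with at least 58.2% of the sum.

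**Figure D3:**
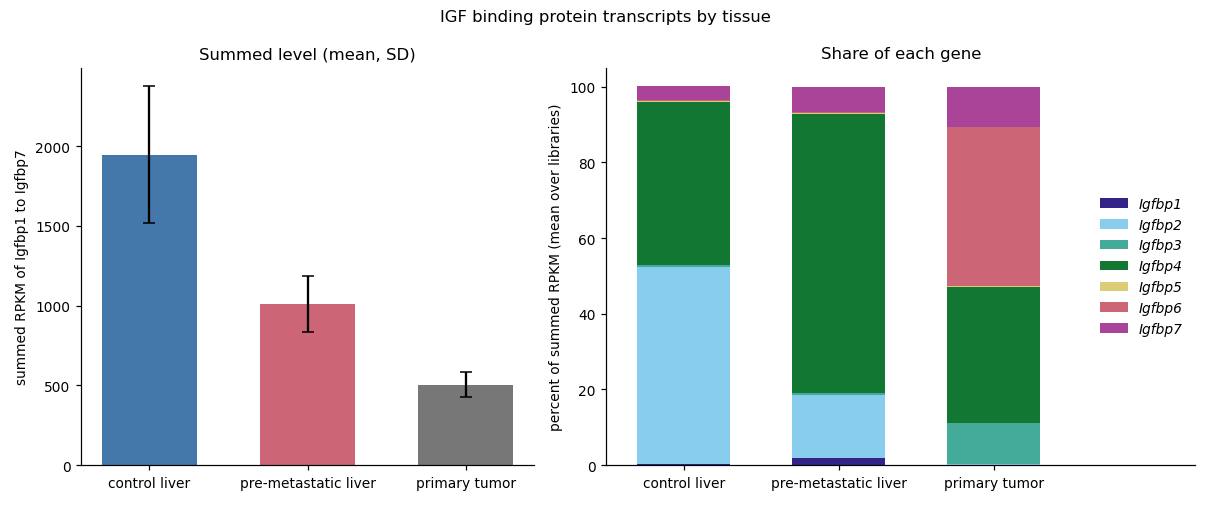
Left, summed RPKM of Igfbp1 to Igfbp7 (mean and SD over 5, 9 and 9 libraries), falling from 1945 in control liver to 1009 in pre-metastatic liver and 505 in tumor. Right, the mean percent of that sum taken by each gene: Igfbp2 and Igfbp4 share control liver, Igfbp4 leads in pre-metastatic liver, and Igfbp6 and Igfbp4 lead in tumor.

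The feedback inhibitors Socs2 and Cish, both known STAT5 targets, varied more among the pre-metastatic livers than between the groups. Socs2 (chromosome 10, 95383903 to 95417253, minus strand, overlapping Gm33230 on the other strand) measured 1.23, 0.58, 1.15, 1.93 and 1.26 RPKM in control liver. In pre-metastatic liver it ran from 0.296 RPKM in M2 through a median of 0.879 to 4.93 RPKM in M6. The livers of M6, M10 and M12 lay above the control range, those of M2 and M7 lay below it, and the difference between the groups did not pass the test (log2 0.77 ± 0.65 SE, adjusted *p* = 0.395).

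Cish (chromosome 9, 107296659 to 107302784, plus strand) measured 1.63, 3.29, 5.71, 3 and 7.21 RPKM in control liver. In pre-metastatic liver it ran from 0.472 RPKM in M8 through a median of 2.97 to 14.1 RPKM in M10, a 30-fold span. M10 and M12, with 14.1 and 13 RPKM, were above all other livers, and M7 and M8 were below all. The fitted log2 fold change of 0.34 (95% interval −0.96 to 1.63, adjusted *p* = 0.734) turned to −0.71 within the early phase (adjusted *p* = 0.322).

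All 3 livers with over 7 RPKM of Cish (C7, M10 and M12) were of the late phase. The mean was 8.29 ± 6.13 RPKM in the 4 late and 1.96 ± 1.16 RPKM in the 5 early pre-metastatic livers (SD). The late mean rests on M10 and M12, since the late livers of M1 and M2 held 3.02 and 2.97 RPKM, within the range of the early livers. The overlapping gene ENSMUSG00000090570.1 on the other strand was also highest in M10, M12 and C7, with 21.7, 20.1 and 10.4 RPKM. The library kit does not mark strand, so reads of Cish and of that gene cannot be told apart where they overlap. The same limit holds for Igf1 and Igf1os, Socs2 and Gm33230, Ghr and Gm41254, and Igfals and Gm41549.

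The Cish window carries 2 copies of the STAT motif, the first at the annotated start itself and the second beginning 11 bases after it. It is shown for this pair, with the motif in capitals.
Cish, chr9:107296409-107296708, plus strand: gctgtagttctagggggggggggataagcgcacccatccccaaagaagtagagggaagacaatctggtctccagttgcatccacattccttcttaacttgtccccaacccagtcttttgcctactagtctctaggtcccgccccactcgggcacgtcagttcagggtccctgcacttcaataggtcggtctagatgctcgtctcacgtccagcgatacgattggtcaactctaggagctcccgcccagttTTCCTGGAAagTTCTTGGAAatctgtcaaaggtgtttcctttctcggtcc
Socs2 and Cish had a rho of 0.7 with each other over the 9 pre-metastatic livers (exact permutation *p* = 0.0433, adjusted over 10951 genes 0.493) and an r of 0.699 (exact permutation *p* = 0.0404), and without M6 and M10 rho was 0.464 and r 0.762. Cish ran against Stat5a, with a rho of −0.817 (exact permutation *p* = 0.0108, adjusted 0.271) and an r of −0.693 (exact permutation *p* = 0.032). Without M10 and M12 that r was −0.491. Neither adjusted value passes the threshold, and both pairs were picked from all pairs of the 10 genes.

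The genes most like each of the 10 over the pre-metastatic livers were taken as the highest 3 by Spearman's rho among 10951 genes, with Pearson's r on log2(RPKM + 1). For Ghr these were the mitochondrial genes Ndufa10 and Aifm1, with a rho of 1 and 0.983 (adjusted *p* = 0.0388 for both), and a gene whose symbol the authors' table holds as a date. In all, 80 genes passed the threshold for Ghr, and 8.05% of the 10951 had an exact permutation *p* under 0.01. RPKM carries no TMM scaling. The TMM factors of these livers ran from 0.64 in M12 to 0.844 in M5, and their part in the correlations was not tested. For the other 9 genes no adjusted *p* passed the threshold. They included Hspe1 for Igfals (rho 0.983, adjusted *p* = 0.543), Minpp1 and Rbm3 for Igfbp2 (0.967, 0.362 for both), and the endothelial gene Flt4 for Igfbp3 (0.983, 0.121). Socs2 was equally like Cdkn2aipnl, Gm4332 and Nufip1 (0.933, 0.387 for each), Cish most like Fmo2 and Tram2 (0.983, 0.0905 for both), Stat5a most like Lrrc8d (0.983, 0.128) and Stat5b equally like Dnase1l3, Lpar6 and Vwa5a (0.983, 0.145 for each). Over all 30 such pairs Pearson's r was 0.777 to 0.983 with exact permutation *p*-values up to 0.00912, r without the 2 farthest livers was 0.615 to 0.996, and rho within the clock phase was 0.897 to 1.

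Other genes of the axis were taken from lists of genes known for these roles. Of 14 further ligands and receptors, 6 were expressed enough to be tested, and 1 rose and 0 fell, beside 17.7% and 13.3% of all genes. The 1 was the prolactin receptor Prlr, which also signals through Jak2 and STAT5. It was 1.76-fold higher in pre-metastatic liver (10 ± 1.57 against 6.05 ± 1.78 RPKM, adjusted *p* = 0.00155). Igf1r, the IGF-I receptor, was at 0.251 to 0.34 RPKM in control liver and 0.0859 to 0.474 RPKM in pre-metastatic liver. Of 10 further binding proteins and proteases 6 were tested, and 1 rose and 0 fell, beside the same shares of all genes. The 1 was Pappa, 4.92-fold higher at a mean of 0.0251 RPKM. At that level it rests on few counts and may have entered the test only through the livers where it was higher. No test of it is given.

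Of 17 signal transducers and brakes, all tested, 7 rose and 0 fell, beside 17.7% and 13.3% of all genes, with a median log2 fold change of 0.28. With library totals 5 rose and 0 fell. Socs3, the brake induced by cytokines of the IL-6 family, rose 2.4-fold from 9.17 ± 1.85 to 20.7 ± 5.67 RPKM (adjusted *p* = 0.000492). Socs1 rose 2.2-fold (adjusted *p* = 0.0369, and 0.0617 with library totals), the phosphatase Ptpn1 1.77-fold (0.00118), Stat3 1.66-fold (0.0017) and the adaptor Grb10 1.6-fold (0.0108).

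Of 16 male-biased liver genes known to depend on pulsatile GH and STAT5, 15 were tested, and 4 rose and 0 fell, beside 17.7% and 13.3% of all genes. Their median was 0.79. Hsd3b5, a steroid dehydrogenase, rose from 3.03 ± 4.32 to 141 ± 95.6 RPKM (adjusted *p* = 0.000986), Egfr rose 4.64-fold (0.000377), the complement gene C6 3.5-fold (0.00166) and the transporter Slco1a1 3.33-fold (0.00225). Of 19 female-biased GH-responsive genes 15 were tested, with a median of −0.05. Among them 1 rose and 2 fell, beside 17.7% and 13.3% of all genes, and 12 were not called. Slc22a26 rose 7.26-fold (adjusted *p* = 0.0454), while the P450 genes Cyp2b10 and Cyp17a1 fell 44.2-fold (6.55e-05) and 17.5-fold (0.000237).

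Of 14 fasting and glucocorticoid genes, all tested, 1 rose and 2 fell, beside 17.7% and 13.3% of all genes, and 11 were not called. G6pc rose 3.43-fold (adjusted *p* = 0.0291), and Tat fell 3.35-fold (0.000241). The median of that list was −0.43. Of 16 acute-phase genes 15 rose and 0 fell, beside 17.7% and 13.3% of all genes, with a median of 1.84. Saa1 went from 391 ± 518 to 5666 ± 2961 RPKM (adjusted *p* = 0.00347).

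**Figure D4:**
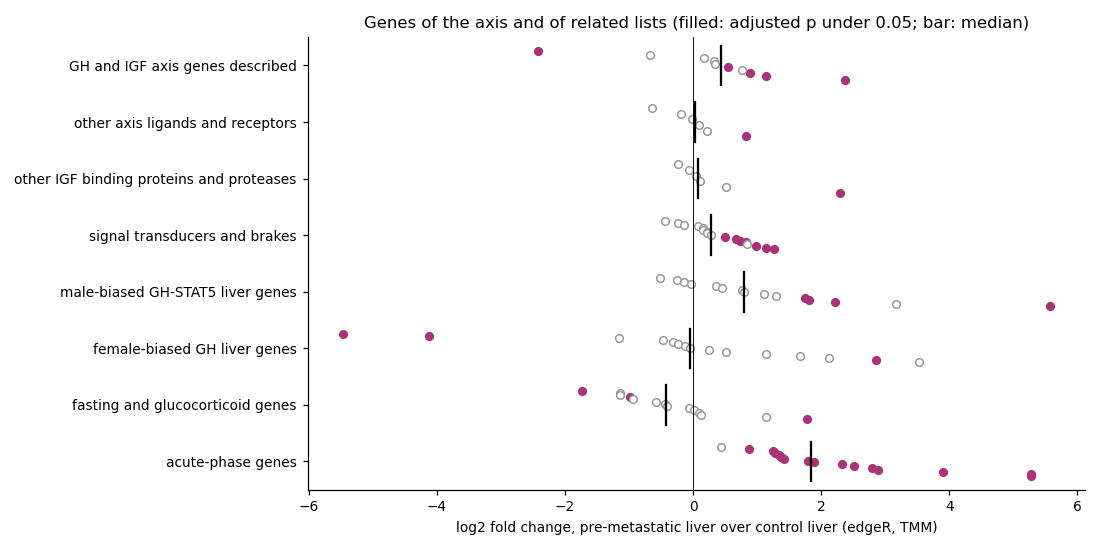
Log2 fold change of pre-metastatic over control liver (horizontal axis, edgeR with TMM) for every tested gene of 8 lists, filled where the adjusted *p* was under 0.05, with a bar at each list's median. The 10 axis genes described here have a median of 0.44, the acute-phase list the highest median, 1.84, and the fasting list −0.43.

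Markers of other cells moved with the same groups. Of 5 Kupffer cell markers 4 rose, beside 17.7% of all genes. Their sum was 54.7 to 112 RPKM in control liver and 111 to 334 RPKM in pre-metastatic liver. Of 8 leukocyte markers 7 were tested and 6 rose, beside the same share of all genes, with sums of 6.51 to 19.5 and 10.1 to 125 RPKM. Their part in the values of Stat5a, Stat5b, Socs1 and Socs3 was not tested.

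**Figure D5:**
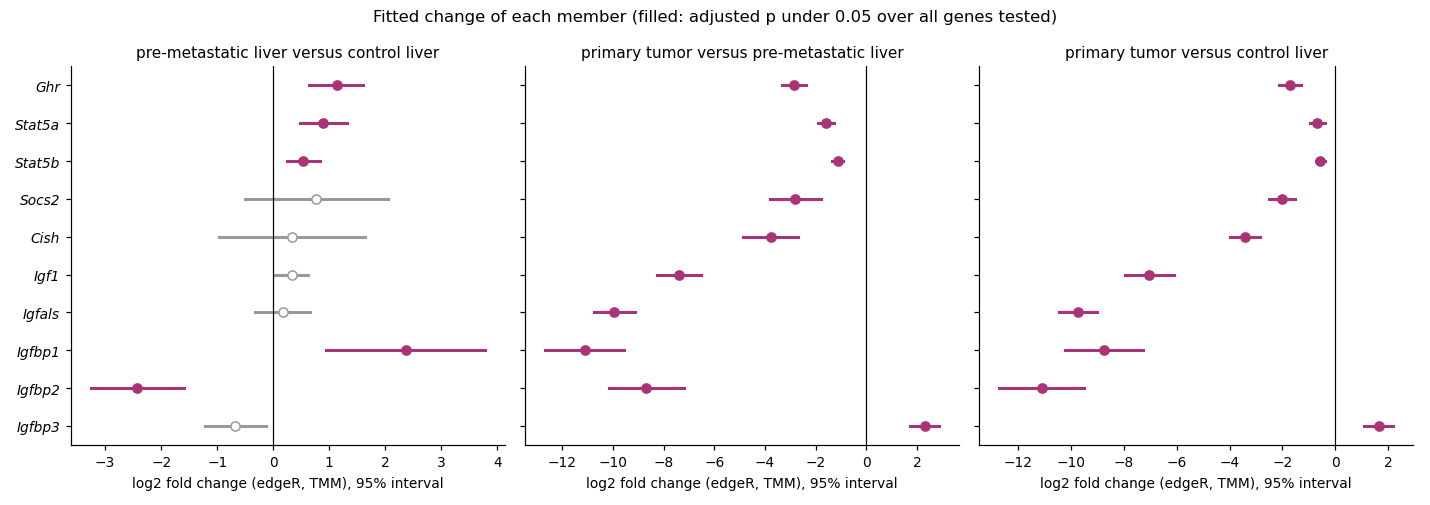
Fitted log2 fold change of the 10 genes with its 95% interval (horizontal axes; edgeR with TMM) in the 3 comparisons, filled where the adjusted *p* was under 0.05. Only Igfbp3 lies to the right of 0 in the 2 tumor panels; with library totals as the scaling, Stat5b (both panels) and Stat5a (right panel) move to the other side of 0.

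The primary tumor was next set against the pre-metastatic liver of the same mice, to describe which side of the axis the tumor carried. Igf1, Igfals, Igfbp1, Igfbp2, Cish, Socs2 and Ghr were lower in tumor and Igfbp3 was higher. All 10 genes passed the test, 1 higher and 9 lower, although Stat5b turned to the other side with library totals. Igfbp1, with at most 6 counts in any tumor, entered this test only through the livers, so it had to differ. Of all genes, 43.8% of 19749 tested were higher and 39.5% lower (8648 and 7809 genes). With library totals as the only scaling, 13352 were higher and 4206 lower, and the median log2 fold change of all genes went from 0.13 to 1.30. The 10 most counted genes took 15% to 27.9% of the counts in livers and 4.78% to 5.74% in tumors. The comparison of tumor and pre-metastatic liver shares its liver libraries with the comparison of the 2 kinds of liver.

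The ranges of tumor and pre-metastatic liver did not overlap for 5 of the 10 genes (Igf1, Igfals, Igfbp1, Igfbp2 and Igfbp3), compared with 67.1% of all genes. Among these 5, Igfbp1 had entered the test only through the livers. Tumor Igf1 was 0.199 to 2.44 RPKM, with a median of 0.772, and its log2 fold change was −7.38 ± 0.44 SE (adjusted *p* = 4.82e-12). Igfals had 1 to 34 counts per tumor and Igfbp1 0 to 6 counts, with 0 in 5 of 9 tumors. Igfbp2 was at 0.0516 to 2.8 RPKM in tumors, highest in the tumors of M10 and M12, which also held the most hepatocyte transcripts. Without these tumors its log2 fold change went from −8.69 to −9.48, and against control liver from −11.12 to −11.88. The part of liver RNA in the tumor values was not tested.

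Igfbp3 was the exception. Its level in tumor was 30.1 to 93.3 RPKM, with a median of 51.8 and the highest values in M8, M6 and M7, against at most 8.8 RPKM in pre-metastatic liver. The rise was 4.95-fold with TMM (log2 2.31 ± 0.29 SE, adjusted *p* = 3.69e-07) and 11.1-fold as a ratio of mean RPKM. With the mouse as a replicate block the log2 fold change was 2.32 ± 0.37 SE (adjusted *p* = 9.58e-05). Among mice of the early phase it was 2.80 and among those of the late phase 1.68. The sum of 6 stellate cell and fibroblast markers was 359 to 654 RPKM in tumors and 43.9 to 152 RPKM in pre-metastatic liver. Of these markers 4 were called higher and 2 lower in tumor, beside 43.8% and 39.5% of all genes. Their part in the level of Igfbp3 was not tested.

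Ghr was expressed in every tumor, at 20.5 to 50.6 RPKM with a median of 28.3, and 6 of 9 tumors lay below the lowest pre-metastatic liver. The log2 fold change was −2.85 ± 0.25 SE (adjusted *p* = 1.34e-09), and the ratio of mean RPKM was 0.308. Socs2 stood at 0.297 to 0.855 RPKM and Cish at 0.5 to 1.36 RPKM in tumor, both in a narrower range than among the livers. Their log2 fold changes were −2.8 ± 0.52 SE (adjusted *p* = 5.04e-05) and −3.78 ± 0.55 SE (2.42e-06). With the mouse as a block they were −2.17 and −3.11. That of Cish was −2.41 among mice of the early phase and −4.65 among those of the late phase. The call of Socs2 was lost with limma on log2(RPKM + 1) (adjusted *p* = 0.0502) and with the exact rank-sum test (0.358).

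The direction of Stat5b against pre-metastatic liver depended on the scaling, while Stat5a was lower under both scalings. Stat5b was at 4.95 to 7.47 RPKM in tumors, with a mean of 6.08 ± 0.698 RPKM against 5.91 ± 1.65 RPKM in pre-metastatic liver (SD, n = 9 each), and its log2 fold change was −1.12 ± 0.12 SE with TMM (adjusted *p* = 2.01e-08) but 0.04 with library totals (0.78). Stat5a was at 1.69 to 2.66 RPKM, with a log2 fold change of −1.59 ± 0.16 SE with TMM (1.04e-08) and −0.42 with library totals (0.0322), and its call was lost with limma on log2(RPKM + 1) (−0.26, 0.0594) and with the exact rank-sum test (0.238). On the RPKM scale Stat5b was above Stat5a in every tumor, with a ratio of 2.36 to 3.34.

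The IGF-I receptor was on the tumor's side. Igf1r was at 9.7 to 12.6 RPKM in tumors against at most 0.474 RPKM in any liver, a log2 fold change of 4.31 ± 0.23 SE (adjusted *p* = 8.55e-13). Of the 7 further ligands and receptors tested, 3 were higher and 3 lower, beside 43.8% and 39.5% of all genes. Prl, one of those higher, entered the test only through the tumors, with 0 to 941 counts there and at most 2 in any liver, so it had to differ and no test of it is given. Prlr was listed at 0 to 0.0414 RPKM in tumors. It passed the count filter through the livers, where it was high, so this level is given as a description. Sstr2 and Insr fell by 4.52 and by 2.86 on the log2 scale (adjusted *p* = 4.68e-06 and 2.95e-15), and Igf2r, which clears IGF-II, rose by 0.33 (0.00952). Igf2 itself was at 0 to 0.411 RPKM and did not pass the test (log2 −0.20, adjusted *p* = 0.845).

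Of 9 further binding proteins and proteases tested, 6 were higher and 3 lower in tumor, beside 43.8% and 39.5% of all genes. The 6 include Stc1, Stc2 and Pappa2, which had to differ, as given below. Igfbp6, which binds IGF-II by preference, was at 212 ± 38.1 RPKM in tumor and 3.47 ± 1.73 RPKM in pre-metastatic liver (log2 4.72 ± 0.27 SE, adjusted *p* = 2.04e-12), and made up 42% of the summed IGFBP level of tumors. Igfbp4 fell by 3.23 (adjusted *p* = 3.29e-14) and Igfbp5 by 2.49 (0.000585), both on the log2 scale. The Pappa inhibitors Stc1 and Stc2 and the protease Pappa2 entered the test only through the tumors, so they had to differ, and their levels are given as a description. In tumor and pre-metastatic liver, Stc1 was at 1.36 ± 0.478 and 0.0348 ± 0.021 RPKM, Stc2 at 1.9 ± 0.669 and 0.0464 ± 0.0414 RPKM and Pappa2 at 0.0683 ± 0.0344 and 0.00648 ± 0.00808 RPKM (SD, n = 9 each).

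Of 17 transducers and brakes 9 were higher and 4 lower with TMM, beside 43.8% and 39.5% of all genes. With library totals 15 were higher and 1 lower, beside 13352 and 4206 of the 19749 genes tested. The split of this list thus depends on the scaling, as does that of all genes. The sum of 8 leukocyte markers was 77 to 296 RPKM in tumors, and its part in this list was not tested. Socs5 and Socs1 were higher under both scalings, with log2 fold changes of 3.52 and 3.07 with TMM (adjusted *p* = 3.08e-13 and 2.61e-10), as were Irs2 (1.39, 1.03e-05) and Jak2 (0.96, 8.99e-08). Stat3 was lower under both (−1.70 with TMM, adjusted *p* = 9.85e-13, and −0.52 with library totals). Jak1 was lower with TMM (−1.02, 7e-11) and at 0.16 with library totals (0.0829).

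The tumors were also set against control liver. In this comparison 1 gene, Igfbp3, was called higher and 9 lower, although Stat5a and Stat5b turned to the other side with library totals. Igfbp1, with at most 6 counts in any tumor, entered this test only through the 5 control livers, so it had to differ. It was not tested when one of them was left out. Of all genes, 44.2% of 19320 tested were higher and 38.1% lower (8541 and 7355 genes, and 12859 and 4130 with library totals). The ranges did not overlap for 7 of the 10 genes, Igfbp1 among them, compared with 73.5% of all genes. The log2 fold changes were 1.65 ± 0.29 SE for Igfbp3 (adjusted *p* = 5.79e-05), −1.70 ± 0.21 SE for Ghr (1.23e-06), −7.04 ± 0.48 SE for Igf1 (8.94e-10) and −11.12 ± 0.83 SE for Igfbp2 (2.81e-09).

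The STAT5 genes again turned with the scaling in this comparison. Stat5a and Stat5b were at −0.68 and −0.56 on the log2 scale with TMM (adjusted *p* = 0.000527 and 3.13e-05), and at 0.40 and 0.52 with library totals (0.0279 and 4.85e-05). All 9 tumors lay above all control livers in RPKM of Stat5b. Of the 17 transducers and brakes 11 were higher and 3 lower with TMM, beside 44.2% and 38.1% of all genes. With library totals 16 were higher and 0 lower, beside 12859 and 4130 of the 19320 genes tested.

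By level, the order within each tissue differed as well. In control liver Igfbp2 was first (1040 ± 365 RPKM) and did not overlap with the next gene, while Igf1, Ghr and Igfals overlapped with one another. In pre-metastatic liver the order was Igfbp2 (178 ± 114), Ghr (103 ± 41.6), Igf1 (62.7 ± 11.6) and Igfals (43.5 ± 15.6 RPKM), and each overlapped with the next, although Igf1 exceeded Igfals in 9 of 9 livers. In tumor Igfbp3 (57.2 ± 24.1) and Ghr (31.7 ± 10.9 RPKM) overlapped and stood above Stat5b (6.08 ± 0.698 RPKM), which did not overlap with Ghr or with Stat5a (2.05 ± 0.321 RPKM). Stat5a, Stat5b, Socs2 and Cish were below 15 RPKM in every library.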

How the data were processed

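Poly(A) RNA-seq of 23 libraries was analysed from the authors' table, in which each column was matched to a sample by mouse and tissue (46 of 46 columns). The authors deposited raw counts per gene, without normalization, and RPKM, the count scaled to the gene's length and to the library's total. The submitters' processing notes name HISAT2, HTSeq 0.6.0 and mm10, and strand use in counting is not given in the sources used here. Gene lengths were those of the deposited table, in bases. The 10 genes and all lists were chosen with earlier results of these data known. Replicates are mice.

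A gene entered a test where 5 or more libraries each held 10 or more counts. The tests were run with edgeR 4.0.16 (TMM, quasi-likelihood, Benjamini-Hochberg, threshold 0.05) in R 4.3.3, within the libraries of each comparison. Intervals are 95%, from the SE and a normal quantile. DESeq2 1.42.0, limma 3.58.1, exact rank-sum tests, other scalings and filters, the clock phase and leaving out each library were alternatives. Correlations were computed over 9 pre-metastatic livers on RPKM (Spearman) and log2(RPKM + 1) (Pearson) with exact permutation over all pairings, two-sided, with Python 3.11.15 and scipy 1.17.1; genes with a mean of at least 1 RPKM entered. Steps were tested on simulated data. In a simulation of the 2 liver groups, 66 of 100 genes changed 2-fold and 84 of 100 genes changed 4-fold were called, so a gene not called may still differ. Tumor and liver of a mouse are paired by origin. Deviations of the 2 tissues from their group means correlated at −0.05 to 0.18 (median 0.06) over 19749 genes, and 3 of 9 tumors correlated best with their own liver. The precision of low levels is limited by counts, and counting error does not cover the spread between mice. The rule for named genes was all 10 genes, up to 6 called genes a list by size of change, and the 3 genes most like each of the 10. Of the hepatocyte list, Tf was not matched. Some genes of the lists that the rule would name are not reported here. A promoter of Socs2 and protein sequences were not used here.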

Additional observations from a re-analysis of the deposited data

Results flagged for a closer look

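Of 30 groups of libraries tested for a single distant value by Dixon's criterion, 2 had one, where chance gives about 1 in 20. Igf1 in the primary tumor was highest in the tumor of M10, at 2.44 RPKM against a group median of 0.772 RPKM; this tumor and that of M12 held the most hepatocyte transcripts, with 86.4 and 173 RPKM of Alb against 2.97 to 15 RPKM in the other tumors. Igfbp3 in control liver was lowest in the liver of C7, at 6.07 RPKM against a median of 8.94 RPKM, and C7 was the only control liver of the late clock phase.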

How the results depend on the processing

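In the comparison of the livers, 5 of the 10 genes were called, and the exact rank-sum test called 3 (Igfbp2 and Stat5a, which are among the 5, and Igfbp3, which is not). Cish changed direction without being called under any setting: its log2 fold change was −0.14 with limma, −0.71 within the early phase, −0.46 with the clock phase as a factor, and −0.07 to 0.61 when single livers were left out (−0.04 without M10 and −0.07 without M12). Igfbp1, Igf1 and Igfbp3 each changed their side of the threshold when 1 liver was left out, as given above. In the tumor comparisons the scaling turned the direction of Stat5b in both and of Stat5a against control liver only. Against pre-metastatic liver, Stat5b was at 0.04 with library totals, 0.07 with limma and 0.04 as the log2 ratio of mean RPKM. That last value was set beside the rank-sum test, which gives no fold change, and it too is scaled to library totals. The ratio of mean levels of Stat5b was 0.463 in CPM with TMM against 1.03 in RPKM. Against control liver, Stat5a was at 0.40, 0.27 and 0.40 and Stat5b at 0.52, 0.43 and 0.52 under the same settings, with ratios of 0.625 and 0.676 in CPM with TMM. With the mouse as a replicate block 16329 genes were called in place of 16457, all 10 genes were called, and no call of the 10 changed. The cause of these shifts was not tested. Igfals and Igfbp1 in tumors rest on few counts, and without M2 the log2 fold change of Igfbp1 was −11.83 against pre-metastatic and −9.37 against control liver.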

Other observations

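Prl, the prolactin gene, was one of the further ligands of the axis. It was at 0 counts in the 5 control livers and in 7 of 9 pre-metastatic livers, and at 2.73 to 20.8 RPKM in 8 of 9 tumors, highest in M6 and M10. The tumor of M2 had 0 RPKM. Its receptor Prlr was at 0 to 0.0414 RPKM in the same tumors and at 8.2 to 12.6 RPKM in the livers of the same mice.

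The liver of M5 held 2.69 RPKM of Ins2, 0.779 RPKM of Ins1 and 0.602 RPKM of Sst, which are pancreatic islet genes, whereas the control livers were at 0 for both insulin genes. The liver of M12 held 16.3 RPKM of Krt19, a bile duct gene, against 0.968 to 5.22 RPKM in all other livers. Bcl6, a repressor known to act against STAT5 in liver, was at 11.2, 8.25 and 11.2 RPKM in the livers of M2, M7 and M8 and at 1.06 to 4.61 RPKM in the other 11 livers.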
